A study of Arabidopsis thaliana with 30 samples.

Results

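Wild-type Col seedlings of Arabidopsis thaliana changed the transcript levels of a large part of their genes under submergence. The response was read from 6 of the 30 libraries of the series, chosen by their labels alone as the Col libraries of the bak set. The 3 submerged libraries came from whole Col seedlings labelled as aged 6 days and treated by submergence. The 3 mock libraries came from Col seedlings of the same age and label without submergence. Both groups carry the wild-type genotype, with no transgene or allele named. The extraction text, shared by all samples, speaks of germinating seeds or seedlings, and neither the length of the treatment nor the light during it is given in the sources used here. The series set out to profile mutants that are sensitive to submergence, and the bak set pairs Col with the mutant bak1-3 bkk1-1, which carries mutant alleles of the receptor kinase genes BAK1 and BKK1. A further 6 Col libraries, 3 submerged and 3 mock, belong to the tcp set and serve below as a second view of submergence under the same label. Whether the treatment was alike in both sets is not given.

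Water around a plant slows the movement of gases and dims the light. Ethylene, a gaseous hormone, builds up inside submerged tissue, photosynthesis runs short of carbon dioxide and light, and respiration can run short of oxygen. Plants under water are known to turn down growth, to draw on starch, protein, amino acids and lipids for energy, and, where oxygen is scarce, to switch on fermentation genes through group VII ERF transcription factors. The gene lists below follow these processes and others that the same tissue is known to regulate. Lists and members were chosen with earlier results of these data known. The share of a list that moved may therefore owe part to that choice, and it describes the members listed.

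Counts of messenger RNA per gene were divided by the library total and given per 1000000 (CPM), which compares 1 gene between libraries but not different genes with each other, since gene length is not taken into account. Library totals lay between 21001355 and 26073132 counts in the submerged group and between 22958800 and 27417759 in mock. Log2 CPM correlated at r = 0.977 to 0.98 among submerged libraries and at 0.975 to 0.979 among mock libraries, against 0.9 to 0.929 between the groups (a description over genes). Fold changes are log2 values, submergence over mock, ± SE from edgeR, and n is 3 libraries per group throughout, with values listed in the order of replicates 1, 2 and 3. "Rose", "fell" and "called" mean an edgeR quasi-likelihood test with a Benjamini-Hochberg adjusted p below 0.05 over all genes tested. The labels do not say that replicates are separate cultures, so the p-values cover only the spread from library to library, which may be technical. In such bulk samples fewer cells of a type and less RNA per cell cannot be told apart.

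Some libraries stood apart on marker genes. Transcripts of 11 seed storage genes summed to 294.2, 150.5 and 223.6 CPM under submergence, against 2.05, 293.6 and 2.28 CPM in mock, so that mock replicate 2 lay with the submerged libraries. Of these 11 genes 3 rose. All 11 rose when mock replicate 2 was left out, but that library was singled out by these same genes, so this is no separate evidence. Mock replicate 3 had the lowest levels of several jasmonate and stress genes, among them DDF1 with 57.1, 34.1 and 6.8 CPM in the mock libraries. Of 9 root markers 2 rose and 1 fell, and their sum was 1724, 1302 and 1607 CPM under submergence, against 3184, 3170.0 and 3267 CPM in mock, most of it from the root and hypocotyl beta-glucosidase gene PYK10 (log2 fold change -1.14 ± 0.11). Of 6 stomatal lineage markers 3 rose and 3 were not called. The meristem markers WUS and CLV3 were at or near 0 in both groups. The part of these differences in the gene results was not tested.

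Of 32833 genes in the table, 20666 passed the filter on low counts and were tested. Submergence changed 10441 of them (50.5%), of which 5317 rose (25.7%) and 5124 fell (24.8%). At least a 2-fold change was reached by 1612 genes that rose (7.8%) and by 2050 that fell (9.92%), and at least an 8-fold change by 206 and 222. The median log2 fold change over all tested genes was 0.01, and every list below is set against these shares and this median. In 11622 genes (56.2%) all 3 submerged libraries lay on 1 side of all 3 mock libraries. Without mock replicate 2 the numbers of genes that rose and fell were 4780 and 4615, and without mock replicate 3 they were 4835 and 4803.

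Of the 10 largest rises 3 belonged to the list of jasmonate inactivation genes. Jasmonates are wound and defence hormones made from membrane lipids. AT2G38240, named by RefSeq as a member of the family of 2-oxoglutarate and iron dependent oxygenases, had 302, 345 and 594 CPM under submergence, against 0, 0.146 and 0.166 CPM in mock. The mock libraries together held 8 counts of it, so no fold is given. ST2A (AT5G07010), a sulfotransferase that acts on hydroxyjasmonate, had 253, 284 and 394 CPM under submergence, against 3.48, 3.06 and 1.87 CPM in mock (log2 fold change 6.77 ± 0.28, adjusted p = 1.91e-09). JRG21 (AT3G55970), a jasmonate-regulated gene of the same oxygenase family, had 95.9, 108 and 251 CPM under submergence, against 2.09, 1.9 and 1.28 CPM in mock (log2 fold change 6.41 ± 0.68, adjusted p = 6.31e-05). In all 3 genes every submerged library lay far above every mock library, and submergence replicate 3 was the highest. RAP2.6 (AT1G43160), an ERF transcription factor gene, had 232, 249 and 287 CPM under submergence, against 5.18, 3.65 and 3.36 CPM in mock (log2 fold change 5.97 ± 0.27, adjusted p = 4.23e-09), and AT4G20970, a bHLH factor by its product name, had 21.1, 27.5 and 55.9 CPM under submergence, against 0.131, 0.292 and 0.539 CPM in mock (log2 fold change 6.70 ± 1.07, adjusted p = 0.000581).

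Other genes of this group are less well described. AT5G25260, a membrane-associated SPFH domain protein, had 44.5, 49.6 and 60.0 CPM under submergence, against 0.218, 0.073 and 0.622 CPM in mock (log2 fold change 7.40 ± 0.32, adjusted p = 4.64e-11). DIR5 (AT1G64160), a dirigent-like protein gene, had 13.2, 25.2 and 18.3 CPM under submergence, against 0.261, 0 and 0.373 CPM in mock (log2 fold change 6.50 ± 0.51, adjusted p = 3.23e-08), and AT1G57630, which encodes a TIR domain protein of a kind found in immune receptors, had 6.67, 13.4 and 19 CPM under submergence, against 0.131, 0.219 and 0.207 CPM in mock (log2 fold change 6.04 ± 0.57, adjusted p = 4.47e-07). The cupredoxin gene AT2G15780 had 3.03, 5.41 and 6.81 CPM under submergence, against 0, 0 and 0 CPM in mock, and the high-affinity nitrate transporter gene NRT2.5 had 8.25, 1.47 and 5.62 CPM under submergence, against 0.0871, 0 and 0 CPM in mock. Mock held 0 counts of the cupredoxin gene and 2 of NRT2.5. In each of these 5 genes the submerged libraries all lay above the mock libraries, with NRT2.5 the least even among them.

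Of the 10 largest falls 5 belonged to transcription factors of the AP2/ERF family, a family with members that plants switch on quickly in cold or after touch or wounding. CBF2 (AT4G25470), a cold-induced activator, had 0.729, 0.78 and 0.762 CPM under submergence, against 61.6, 71.2 and 42.5 CPM in mock (log2 fold change -6.29 ± 0.42, adjusted p = 3.56e-07). Its neighbour and close copy CBF1 had 0, 0.217 and 0.238 CPM under submergence, against 39.8, 27.9 and 11.1 CPM in mock, 10 counts in all under submergence, and reads shared between such copies make single values uncertain. DDF1 (AT1G12610), a related factor, had 0.345, 0.433 and 0.762 CPM under submergence, against 57.1, 34.1 and 6.8 CPM in mock (log2 fold change -6.03 ± 1.14, adjusted p = 0.00218), and ORA47 (AT1G74930), an activator of jasmonate synthesis genes, had 1.8, 0.78 and 0.905 CPM under submergence, against 85.3, 96.7 and 44.3 CPM in mock (log2 fold change -6.00 ± 0.44, adjusted p = 1.48e-06). The AP2/ERF-type gene AT1G19210 had 0.23, 0 and 0 CPM under submergence, against 4.44, 8.39 and 2.36 CPM in mock. All 5 were below 2 CPM in every submerged library, while mock replicate 3 held less than mock replicates 1 and 2 in each.

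The remaining large falls were of mixed function. CYP79F1 (AT1G16410), which starts the making of aliphatic glucosinolates from chain-extended methionine, had 1.42, 0.78 and 1.05 CPM under submergence, against 47.6, 63.1 and 54 CPM in mock (log2 fold change -5.67 ± 0.20, adjusted p = 4.96e-13). NAC036 (AT2G17040), a NAC transcription factor gene, had 0.46, 0.0433 and 0.0952 CPM under submergence, against 12.2, 10.8 and 10.1 CPM in mock (log2 fold change -5.68 ± 0.37, adjusted p = 2.80e-10), CYP71A27 (AT4G20240), a cytochrome P450 gene, had 0.499, 0.0866 and 0.476 CPM under submergence, against 18.3, 17.1 and 12.4 CPM in mock (log2 fold change -5.49 ± 0.31, adjusted p = 4.79e-11), and AT4G27654, of unknown function, had 0.153, 0.346 and 0.191 CPM under submergence, against 20.9, 20.0 and 6.3 CPM in mock (log2 fold change -6.10 ± 1.03, adjusted p = 0.000363). The fatty acid desaturase family gene AT1G06100 had 0, 0 and 0.191 CPM under submergence, against 4.14, 6.97 and 6.01 CPM in mock. The mock libraries were close to each other for CYP79F1, NAC036 and CYP71A27, and no library of the 5 genes crossed between the groups.

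**Figure D1:**
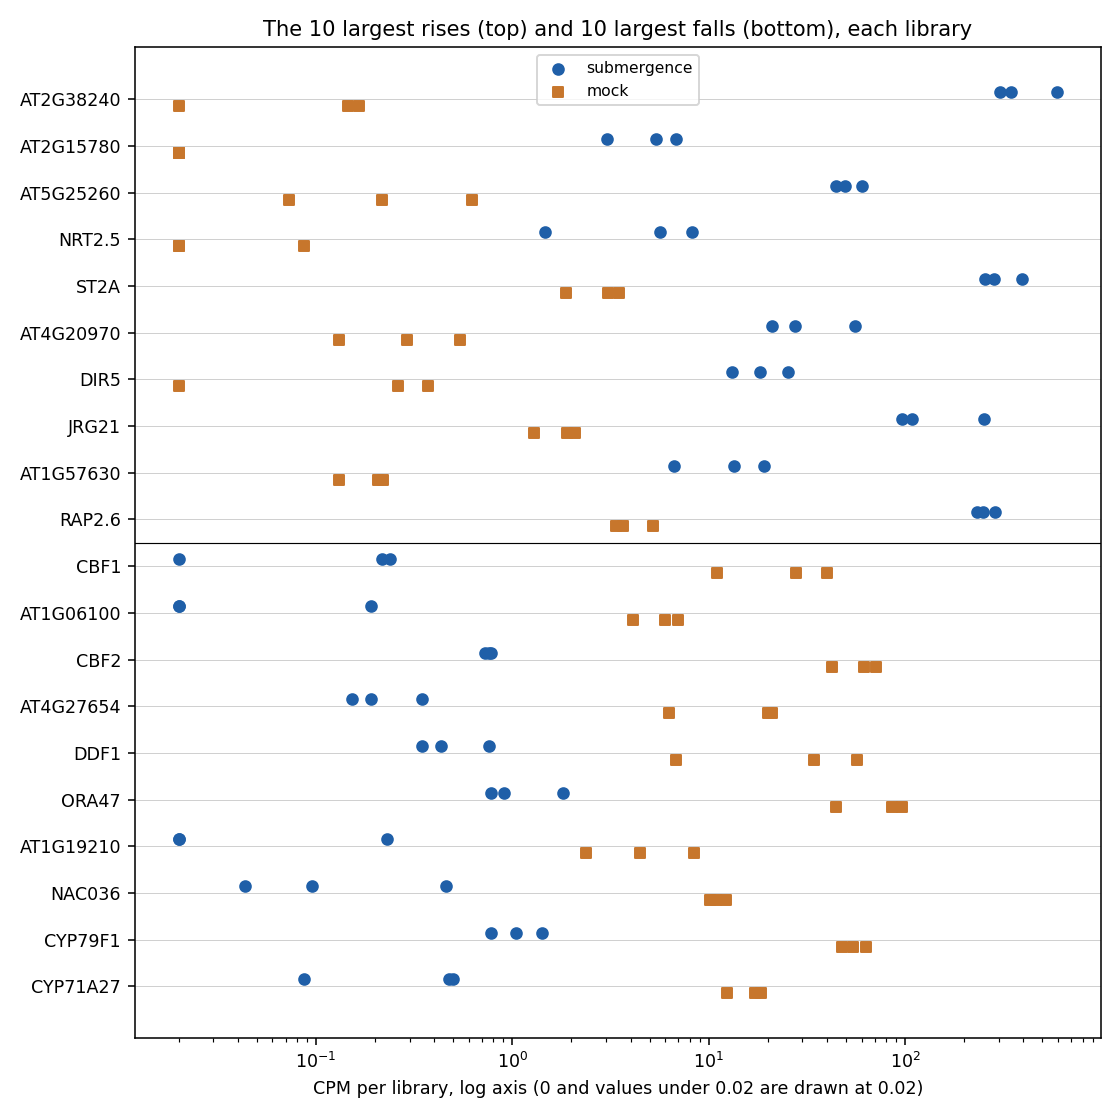
Level of the 10 genes with the largest rise (top) and the 10 with the largest fall (bottom) in each library, in CPM on a log axis; circles are the 3 submerged and squares the 3 mock libraries of Col. The groups do not overlap for any of the 20 genes, which the choice of genes required, and mock replicate 3 makes the lowest mock point of DDF1 at 6.8 CPM.

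The rule on gains in CPM named a further 8 genes, and since CPM depend on gene length these genes are not ranked against each other. DIN10 (AT5G20250), a raffinose synthase family gene named for its induction in darkness, had 4484, 5157 and 5024 CPM under submergence, against 1025, 1173 and 1502 CPM in mock (log2 fold change 1.97 ± 0.14, adjusted p = 2.04e-09). SEN1 (AT4G35770), a senescence gene also known to respond to darkness, had 2277, 3092 and 2553 CPM under submergence, against 103, 119.7 and 177 CPM in mock (log2 fold change 4.29 ± 0.29, adjusted p = 2.64e-07). GDH2 (AT5G07440), a subunit of glutamate dehydrogenase, which releases ammonium from glutamate, had 2617, 4342 and 3716 CPM under submergence, against 331, 386 and 404 CPM in mock (log2 fold change 3.24 ± 0.18, adjusted p = 2.36e-10). Each of these genes was above the highest mock value in all submerged libraries. The same holds for AT3G15450, the aluminum induced protein gene with YGL and LRDR motifs (log2 fold change 1.7 ± 0.14, adjusted p = 1.73e-08), and the sugar uptake gene STP1 (AT1G11260) (log2 fold change 2.71 ± 0.15, adjusted p = 6.88e-11). XTH24 (AT4G30270), which remodels cell wall xyloglucan, changed by 2.58 ± 0.20, ADC2 (AT4G34710), an arginine decarboxylase of polyamine synthesis, by 2.18 ± 0.20, and the polyubiquitin gene UBQ10 (AT4G05320) by 1.25 ± 0.14 (adjusted p = 8.11e-08, 3.77e-07 and 3.99e-07). The 8 genes named for losses in CPM encode chloroplast proteins and are described with photosynthesis.

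Genes for breaking down branched-chain amino acids rose almost as a whole. This mitochondrial pathway takes leucine, isoleucine and valine apart and passes electrons to respiration, and it is known to be active in plants kept in darkness. Of 17 members 15 rose and 1 fell, with a median log2 fold change of 1.91, and 12 rose at least 2-fold. BCAT2 (AT1G10070), a branched-chain aminotransferase that starts the pathway, had 681, 905 and 853 CPM under submergence, against 16.8, 23 and 32 CPM in mock (log2 fold change 5.07 ± 0.38, adjusted p = 2.76e-06). AT1G21400, a thiamin diphosphate-binding protein by its product name, placed in the list as a subunit of the branched-chain keto acid dehydrogenase, had 752, 1048 and 956 CPM under submergence, against 73.8, 85 and 122 CPM in mock (log2 fold change 3.28 ± 0.25, adjusted p = 8.85e-07). The submerged libraries exceeded the mock libraries in both genes, with replicate 2 the highest.

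Further members moved in step with the entry enzymes. BCE2 (AT3G06850) and DIN4 (AT3G13450), other subunits of the dehydrogenase complex, changed by 2.93 ± 0.15 and 2.83 ± 0.19 (adjusted p = 1.66e-10 and 4.88e-08). IVD (AT3G45300), isovaleryl-CoA dehydrogenase, had 466, 562 and 546 CPM under submergence, against 83.4, 114 and 107 CPM in mock (log2 fold change 2.35 ± 0.16, adjusted p = 3.83e-09). ALDH6B2 (AT2G14170), the methylmalonate semialdehyde dehydrogenase of valine breakdown, had 382, 424 and 404 CPM under submergence, against 80.4, 83.3 and 86.2 CPM in mock (log2 fold change 2.26 ± 0.10, adjusted p = 6.72e-12). The methylcrotonyl-CoA carboxylase subunit genes MCCA and MCCB rose by 2.5 and 2.08, and ETFQO, which hands the electrons to ubiquinone, by 1.83. The 2 members without a rise were AT2G26800, at -0.25 ± 0.09 (adjusted p = 0.0274), a call lost without mock replicate 2, mock replicate 3 or submergence replicate 3 (adjusted p = 0.0639, 0.0764 and 0.0971), and AT5G09300, at -0.23 ± 0.23 (adjusted p = 0.423). Together the list held 0.423, 0.535 and 0.502% of all counts under submergence, against 0.0746, 0.0875 and 0.0963% in mock.

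Genes of nitrogen remobilisation, a list that holds both breakdown and synthesis of amino acids, did not move as 1 group. 13 of 20 members rose and 6 fell, with a median of 0.63. ASN1 (AT3G47340), a dark-induced asparagine synthetase, had 1384, 2375 and 1906 CPM under submergence, against 89.6, 116 and 144 CPM in mock (log2 fold change 4.01 ± 0.34, adjusted p = 4.41e-06). Its relative ASN2 (AT5G65010) had 57.3, 59.6 and 49.5 CPM under submergence, against 487, 472 and 582 CPM in mock (log2 fold change -3.23 ± 0.11, adjusted p = 4.96e-13). The groups were fully apart for both genes, in opposite directions. LKR/SDH (AT4G33150), of lysine breakdown, and ERD5 (AT3G30775), the proline dehydrogenase also called PRODH1, rose by 2.67 and 2.66, while P5CS1 (AT2G39800), a key enzyme of proline synthesis, had 18.6, 17.5 and 22.1 CPM under submergence, against 101, 118 and 93.6 CPM in mock (log2 fold change -2.45 ± 0.14, adjusted p = 2.25e-10). Among cytosolic glutamine synthetases GLN1;1 (AT5G37600) had 358, 278 and 401 CPM under submergence, against 70.8, 86.7 and 74.1 CPM in mock (log2 fold change 2.14 ± 0.13, adjusted p = 1.89e-10), and GLN1;2 (AT1G66200) had 228, 216 and 210.2 CPM under submergence, against 608, 632 and 619.8 CPM in mock (log2 fold change -1.53 ± 0.09, adjusted p = 2.55e-10). HGO, of tyrosine breakdown, rose by 2.04.

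Fat breakdown and autophagy, which recycle stored lipid and cell contents, rose as well. Of 20 fat breakdown genes 16 rose and 2 fell, with a median of 0.72. ACX2 (AT5G65110), an acyl-CoA oxidase of peroxisomal beta-oxidation, had 382, 437 and 442 CPM under submergence, against 111, 119.7 and 122 CPM in mock (log2 fold change 1.82 ± 0.11, adjusted p = 1.80e-10). MFP2 (AT3G06860), the multifunctional protein of the same spiral, changed by 1.39 ± 0.09, ACX1 (AT4G16760) by 1.67 ± 0.11, and PCK1 (AT4G37870), which leads carbon from lipid towards sugar, by 1.42 ± 0.09 (adjusted p = 5.90e-10, 1.10e-09 and 6.50e-10). The triacylglycerol lipase gene SDP1 rose by 1.01. The malate dehydrogenase gene PMDH2 and the thiolase gene KAT5 fell, with log2 fold changes of -0.80 ± 0.12 and -1.07 ± 0.21 (adjusted p = 2.14e-05 and 0.000957).

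Of 32 autophagy genes 26 rose and none fell, with a median of 0.70. ATG8E (AT2G45170), a ubiquitin-like protein that coats the growing autophagosome, had 242, 277 and 249 CPM under submergence, against 60.6, 62.1 and 69.2 CPM in mock (log2 fold change 1.98 ± 0.12, adjusted p = 3.30e-10). NBR1 (AT4G24690), a receptor that carries ubiquitinated cargo, had 428, 443 and 484 CPM under submergence, against 226, 258 and 243 CPM in mock (log2 fold change 0.88 ± 0.09, adjusted p = 2.85e-07). The submerged libraries were close to each other and above mock in both genes. All 9 ATG8 genes of the list rose, from 0.69 in ATG8C to 1.98 in ATG8E, and ATG18A (AT3G62770) rose by 1.45 (adjusted p = 1.27e-09). The other 6 members were not called.

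**Figure D2:**
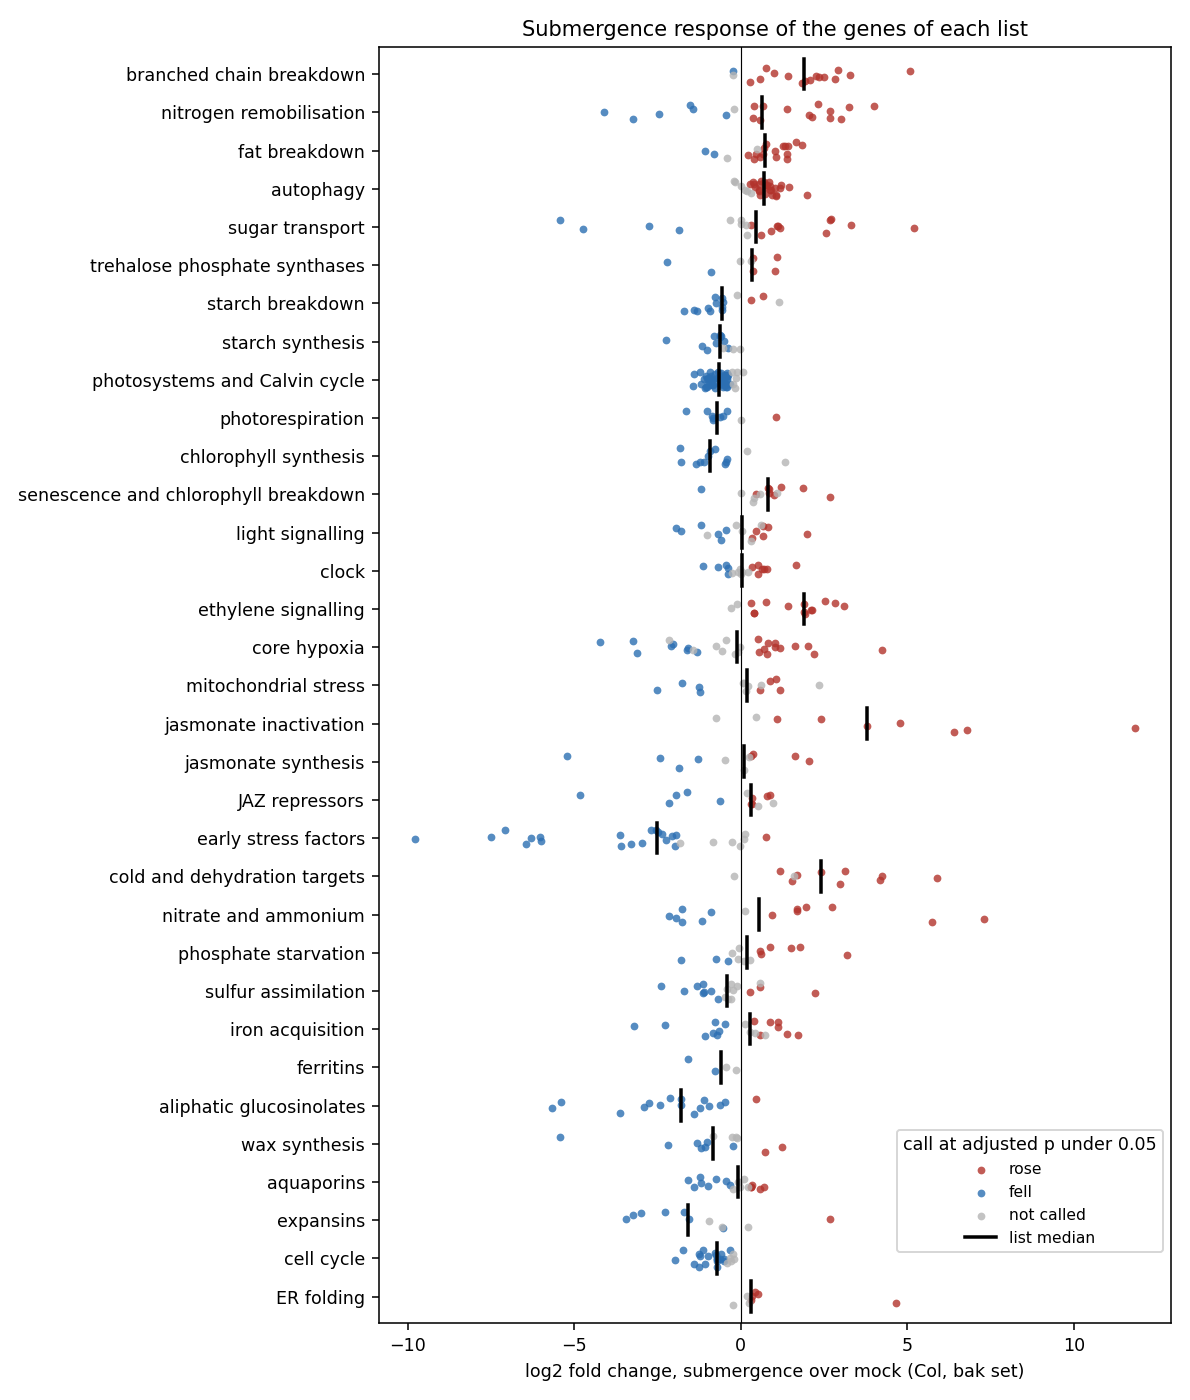
Log2 fold change, submergence over mock, of each measured gene of 33 lists in Col of the bak set; each point is 1 gene, coloured by whether it rose, fell or was not called, and the black bar is the list median. Where a group held 10 counts or fewer the plotted fold depends on the prior count of the fit. Branched-chain breakdown, ethylene signalling, jasmonate inactivation and the cold and dehydration genes lie mostly to the right, and early stress factors, expansins and aliphatic glucosinolate genes mostly to the left.

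Sugar carriers and starch enzymes moved in different directions. Of 22 sugar transport genes 20 were measured, 11 rose and 4 fell, with a median of 0.46. STP4 (AT3G19930), a hexose importer of the plasma membrane, had 856, 1035 and 988 CPM under submergence, against 87.7, 93.7 and 105 CPM in mock (log2 fold change 3.31 ± 0.12, adjusted p = 4.96e-13). SWEET12 (AT5G23660), which releases sucrose for phloem loading, had 137, 123 and 126 CPM under submergence, against 20.8, 21 and 22.9 CPM in mock (log2 fold change 2.56 ± 0.12, adjusted p = 1.15e-11), and SWEET10 (AT5G50790) had 25.2, 17 and 16.9 CPM under submergence, against 0.479, 0.766 and 0.29 CPM in mock (log2 fold change 5.21 ± 0.35, adjusted p = 1.33e-09). The 3 genes were higher in every submerged library. SWEET17 (AT4G15920), a fructose facilitator of the vacuole membrane, had 12.3, 9.18 and 10.2 CPM under submergence, against 36.7, 36.2 and 41.2 CPM in mock (log2 fold change -1.86 ± 0.12, adjusted p = 5.02e-10), and SWEET15 also fell (log2 fold change -2.75 ± 0.32, adjusted p = 8.60e-07). SWEET4 and SWEET13 fell too, with 1 count each over the 3 submerged libraries, against 0.305, 0.656 and 0.539 and 0.697, 1.24 and 0.456 CPM in mock.

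Starch genes fell on both sides of the balance. Of 13 synthesis genes 0 rose and 10 fell (median -0.63), and of 15 breakdown genes 2 rose and 11 fell (median -0.58). GBSS1 (AT1G32900), the granule-bound synthase that makes amylose, had 42.8, 23 and 30.9 CPM under submergence, against 162, 146 and 143 CPM in mock (log2 fold change -2.24 ± 0.15, adjusted p = 4.56e-09). DPE2 (AT2G40840), which uses maltose in the cytosol, had 55.1, 42.3 and 52.5 CPM under submergence, against 139, 124 and 127 CPM in mock (log2 fold change -1.40 ± 0.10, adjusted p = 2.11e-09), and BAM3 (AT4G17090), the main beta-amylase of leaf chloroplasts, had 188, 134 and 143 CPM under submergence, against 462, 370.5 and 302 CPM in mock (log2 fold change -1.31 ± 0.14, adjusted p = 5.03e-07). In all 3 genes each submerged library was below each mock library. AMY3 (AT1G69830), a plastid alpha-amylase, rose, with 191, 170.1 and 216 CPM under submergence, against 129, 106 and 122 CPM in mock (log2 fold change 0.67 ± 0.10, adjusted p = 2.18e-05). Of 8 trehalose phosphate synthase genes 4 rose and 2 fell. TPS1 (AT1G78580), which makes the sugar signal trehalose 6-phosphate, had 14.5, 8.75 and 12.7 CPM under submergence, against 57.6, 52 and 55.4 CPM in mock (log2 fold change -2.22 ± 0.16, adjusted p = 6.57e-09), while the related genes TPS10 and TPS11 rose by 1.03 and 1.1 (adjusted p = 4.36e-07 and 3.34e-07).

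Nuclear genes of the photosystems and the Calvin cycle, which capture light and fix carbon, fell together. Of 57 members 56 were measured, 0 rose, 50 fell and 6 were not called, with a median of -0.65. RCA (AT2G39730), the activase that keeps Rubisco working, had 6195, 5686 and 5177 CPM under submergence, against 12491, 13430.3 and 13041 CPM in mock (log2 fold change -1.21 ± 0.14, adjusted p = 1.05e-06). RBCS1A (AT1G67090), a Rubisco small subunit gene, had 7872, 6468 and 6284 CPM under submergence, against 12246, 11792 and 12882 CPM in mock (log2 fold change -0.86 ± 0.13, adjusted p = 2.74e-05). LHCB1.1 (AT1G29920), an antenna protein of photosystem II, had 2134, 1999 and 1957 CPM under submergence, against 4161, 4516 and 5087 CPM in mock (log2 fold change -1.2 ± 0.12, adjusted p = 1.34e-07). These genes were lower in every submerged library, without overlap of the groups. FBA1 (AT2G21330), a plastid aldolase, had 582, 521 and 502 CPM under submergence, against 1419, 1427 and 1408 CPM in mock (log2 fold change -1.43 ± 0.11, adjusted p = 4.23e-09).

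Other losses in transcript came from the same machinery. LHCB5 (AT4G10340), an antenna gene, changed by -0.80 ± 0.14, RBCS3B (AT5G38410) by -0.52 ± 0.13, and CA1 (AT3G01500), the chloroplast carbonic anhydrase outside the list, by -1.08 ± 0.15 (adjusted p = 7.30e-05, 0.00281 and 7.37e-06). LHCB1.3 (AT1G29930) had 9623, 10164 and 8808 CPM under submergence, against 11419.5, 12556 and 13458 CPM in mock, a smaller relative change (log2 fold change -0.41 ± 0.15, adjusted p = 0.0334). The LHCB1.3 call was lost without mock replicate 2 or 3 or submergence replicate 1 or 3 (adjusted p = 0.0831, 0.116, 0.0738 and 0.115) and with estimates of spread that are not robust (adjusted p = 0.0716). The LHCB1 and RBCS genes are near-identical copies, so the split of reads among them is uncertain. As a group the list held 9.85, 9.59 and 8.74% of all counts under submergence, against 14.1, 14.9 and 15.3% in mock, with no overlap. Of the 50 genes that fell 10 fell at least 2-fold.

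Chlorophyll synthesis fell further. 11 of 13 measured genes fell and none rose, with a median of -0.93. HEMA1 (AT1G58290), a control point at the entry to tetrapyrrole synthesis, had 142, 165 and 149 CPM under submergence, against 593, 529.5 and 484 CPM in mock (log2 fold change -1.83 ± 0.11, adjusted p = 3.01e-10). CHLH (AT5G13630), a subunit of magnesium chelatase, had 1015, 729.5 and 853 CPM under submergence, against 2913, 2927 and 3059.6 CPM in mock (log2 fold change -1.80 ± 0.12, adjusted p = 1.08e-09). Levels under submergence were far below mock in every library for both. GLK1 (AT2G20570), a transcription factor that promotes chloroplast development, had 44.6, 24.7 and 34.2 CPM under submergence, against 80.6, 86.3 and 91.2 CPM in mock (log2 fold change -1.34 ± 0.13, adjusted p = 1.90e-07). The protochlorophyllide oxidoreductase gene PORB, with 313, 256 and 223 CPM under submergence, against 213, 197 and 271 CPM in mock, was not called (adjusted p = 0.281).

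Genes for dismantling chlorophyll and for senescence mostly rose. Of 15 members 14 were measured, 8 rose and 1 fell, with a median of 0.83. ORE1 (AT5G39610), a NAC factor that drives leaf senescence, had 38.2, 43 and 42.5 CPM under submergence, against 4.05, 5.76 and 9.29 CPM in mock (log2 fold change 2.67 ± 0.20, adjusted p = 1.90e-08). NYE1 (AT4G22920), the magnesium dechelatase that starts chlorophyll breakdown, had 46.8, 55.1 and 62.5 CPM under submergence, against 21.1, 27.5 and 21.1 CPM in mock (log2 fold change 1.22 ± 0.14, adjusted p = 5.79e-07), and the next enzyme genes PPH and PAO rose by 0.84 and 0.81 (adjusted p = 7.09e-07 and 2.06e-05). The later enzyme gene RCCR (AT4G37000) had 28.4, 27.1 and 29.9 CPM under submergence, against 69.5, 57.7 and 67.2 CPM in mock (log2 fold change -1.2 ± 0.11, adjusted p = 7.54e-08), the 1 fall of the list. SAG12, a marker of late senescence, had 0 counts in all 6 libraries. Photorespiration, which salvages the side product of Rubisco, fell in 8 of 10 genes and rose in 1 (median -0.72). CAT2 (AT4G35090), the leaf peroxisomal catalase, had 1283, 1579 and 1394 CPM under submergence, against 2945, 2920.0 and 2722 CPM in mock (log2 fold change -1.03 ± 0.14, adjusted p = 5.03e-06), and the glycerate kinase gene AT1G80380 rose by 1.06 ± 0.13 (adjusted p = 2.13e-06).

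**Figure D3:**
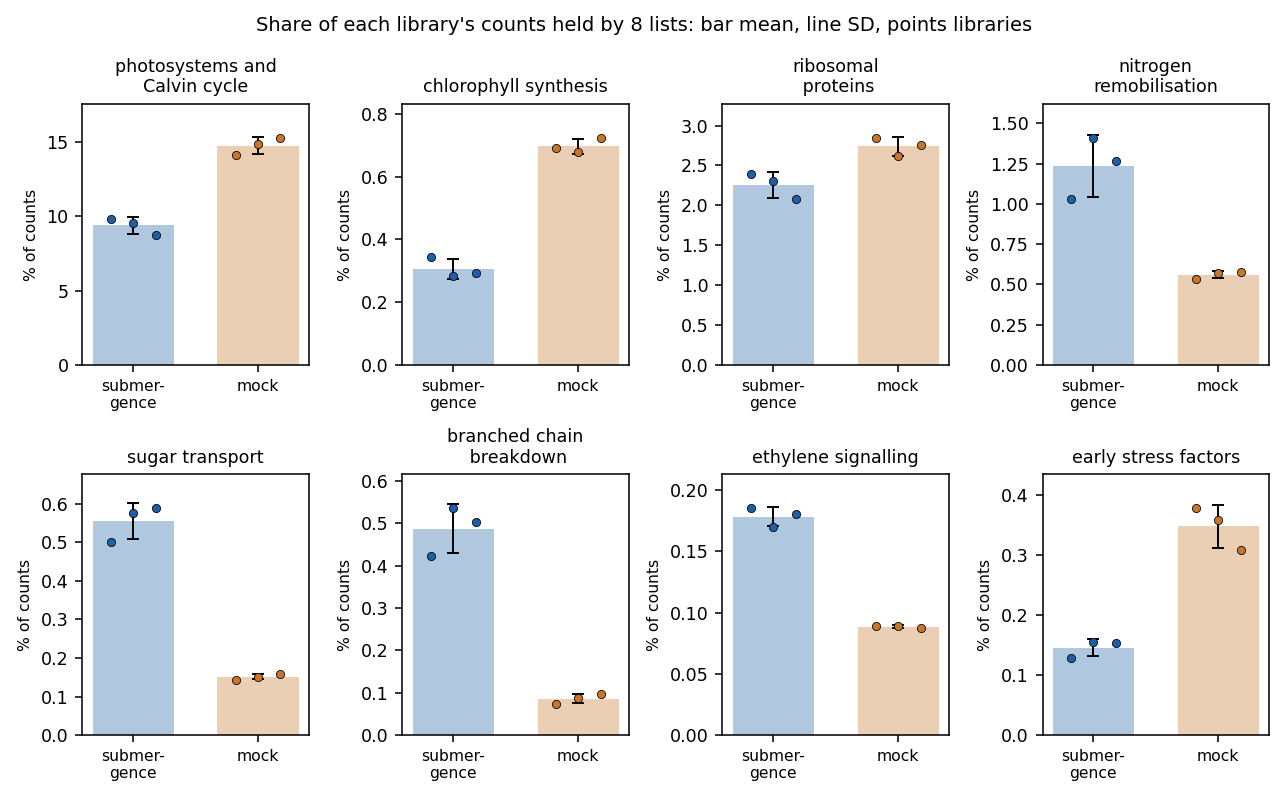
Percentage of each library's counts that fell on 8 gene lists in Col of the bak set, submergence left and mock right; bars are means, lines SD and points the 3 libraries. The photosystem and Calvin cycle list lies at 8.74 to 9.85% under submergence and at 14.1 to 15.3% in mock, while the branched-chain list lies at 0.423 to 0.535% under submergence and at 0.0746 to 0.0963% in mock.

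Light and clock genes were mixed. Of 17 light signalling genes 6 rose and 6 fell, and the median of 0.04 turned negative without mock replicate 1, mock replicate 3 or submergence replicate 1 (-0.05, -0.10 and -0.13). PIF3 (AT1G09530), a factor that restrains greening in the dark, had 94.7, 80.0 and 96 CPM under submergence, against 21.9, 21.9 and 24.1 CPM in mock (log2 fold change 1.97 ± 0.10, adjusted p = 1.24e-11). PIF4 (AT2G43010), a related factor that promotes elongation, had 14.5, 13.5 and 14.8 CPM under submergence, against 43.5, 43.2 and 58.2 CPM in mock (log2 fold change -1.78 ± 0.17, adjusted p = 3.18e-07), and ATHB2 (AT4G16780), a marker of shade, had 3.8, 3.85 and 2.57 CPM under submergence, against 14.4, 11.6 and 13.1 CPM in mock (log2 fold change -1.94 ± 0.19, adjusted p = 1.16e-07). The groups were separate for the 3 genes, with PIF3 higher and the others lower under submergence. The phytochrome genes PHYA and PHYB changed by 0.82 ± 0.10 and -0.60 ± 0.11 (adjusted p = 1.86e-06 and 0.000193).

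Of 18 clock genes 7 rose and 5 fell. CCA1 (AT2G46830), a morning factor, had 95.2, 60.0 and 75.2 CPM under submergence, against 160.5, 170.0 and 164 CPM in mock (log2 fold change -1.12 ± 0.12, adjusted p = 2.95e-07), and BOA (AT5G59570), an evening factor, had 21, 33 and 24.5 CPM under submergence, against 7.41, 10.4 and 6.43 CPM in mock (log2 fold change 1.66 ± 0.19, adjusted p = 9.75e-07). PRR7, TOC1 and LUX rose by 0.79, 0.63 and 0.69 (adjusted p = 2.08e-06, 1.03e-05 and 0.00165). The time of harvest of the 2 groups is not given in the sources used here. Submergence and time of day therefore cannot be told apart for these genes, nor for any gene of other lists that follows the day.

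Ethylene signalling rose with little spread between libraries. Without ethylene its receptors keep the kinase CTR1 active, which holds the response back, and genes of the receptors and of feedback parts are known targets of the hormone. Of 15 members 13 rose and none fell, with a median of 1.89. Among receptors ETR2 (AT3G23150) had 53.2, 53.1 and 53 CPM under submergence, against 10.6, 11.4 and 13.8 CPM in mock (log2 fold change 2.13 ± 0.11, adjusted p = 3.85e-11), and ERS1 (AT2G40940) had 254, 248 and 257 CPM under submergence, against 67.5, 58.9 and 69.8 CPM in mock (log2 fold change 1.93 ± 0.09, adjusted p = 1.05e-11). CTR1 (AT5G03730) itself had 348, 328 and 358 CPM under submergence, against 77.4, 81.1 and 81 CPM in mock (log2 fold change 2.09 ± 0.10, adjusted p = 8.82e-12). Submerged libraries stood well above mock in these genes, with no overlap. ERS2 rose by 1.90, EBF2 (AT5G25350), an F-box protein that removes EIN3, by 1.89, and ARGOS (AT3G59900) and its relative ARL, which promote organ growth and dampen ethylene sensitivity, by 3.08 and 2.53. EIN3 and ETR1 rose less, by 0.40 and 0.75 (adjusted p = 0.000498 and 1.40e-06), and EBF1 and EIL1 were not called. EBF1 had -0.29 ± 0.15 (adjusted p = 0.127), and it was called lower without mock replicate 3 (-0.48, adjusted p = 0.00394) and in the joint fit with Col of the tcp set (-0.32 ± 0.12, adjusted p = 0.0392).

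Genes of the core hypoxia set did not move as a group. Of 34 members 28 were measured, 12 rose and 8 fell, with a median of -0.13. ADH1 (AT1G77120), the alcohol dehydrogenase of fermentation, had 20.2, 31.4 and 34.4 CPM under submergence, against 15, 17.4 and 17 CPM in mock (log2 fold change 0.77 ± 0.21, adjusted p = 0.00686). The pyruvate decarboxylase gene PDC1 (AT4G33070) had 2.15, 2.43 and 3.33 CPM under submergence, against 6.45, 7.77 and 8.83 CPM in mock (log2 fold change -1.58 ± 0.28, adjusted p = 0.000133), while its relative PDC2 (AT5G54960) had 107, 110.1 and 110.0 CPM under submergence, against 49.6, 55.2 and 52.5 CPM in mock (log2 fold change 1.04 ± 0.10, adjusted p = 1.53e-07). Submergence thus lay above mock for ADH1 and PDC2 and below it for PDC1, each without overlap. SUS4 (AT3G43190), a sucrose synthase often used as a hypoxia marker, had 1.46, 1.08 and 0.905 CPM under submergence, against 7.23, 12.3 and 12.6 CPM in mock (log2 fold change -3.22 ± 0.34, adjusted p = 5.20e-07). The plant cysteine oxidase genes PCO1 and PCO2, whose products sense oxygen, fell, with log2 fold changes of -2.02 ± 0.28 and -1.61 ± 0.30 (adjusted p = 6.73e-06 and 0.000214).

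Other members of that set rose strongly. AT1G19530, of unknown function, had 169.6, 296 and 171 CPM under submergence, against 6.97, 11.2 and 15.3 CPM in mock (log2 fold change 4.23 ± 0.35, adjusted p = 6.56e-06), and HRE1 (AT1G72360), a group VII ERF gene, had 22.7, 31.1 and 14.2 CPM under submergence, against 4.22, 4.52 and 6.01 CPM in mock (log2 fold change 2.19 ± 0.27, adjusted p = 1.15e-05). UKL3 (AT1G55810), a uridine kinase-like gene, rose by 1.61 and AlaAT1 (AT1G17290), an alanine aminotransferase, by 0.83 (adjusted p = 4.55e-09 and 2.24e-06). The largest fall was that of SAD6 (AT1G43800), a stearoyl desaturase gene, with 0.882, 0.476 and 0.762 CPM under submergence, against 11.7, 15.7 and 12.1 CPM in mock (log2 fold change -4.23 ± 0.30, adjusted p = 1.92e-09). RBOHD (AT5G47910), an oxidase that makes superoxide at the plasma membrane, had 64.2, 58.3 and 64 CPM under submergence, against 335, 287 and 167 CPM in mock (log2 fold change -2.10 ± 0.22, adjusted p = 9.75e-06). AT4G10270 had 0 counts in all 6 libraries, and HRE2 had 21 counts under submergence and 15 in mock. Of 14 measured genes of mitochondrial stress 4 rose and 4 fell. The alternative dehydrogenase gene NDA1 (AT1G07180) had 62.9, 59.2 and 60.3 CPM under submergence, against 139.9, 146 and 148 CPM in mock (log2 fold change -1.27 ± 0.11, adjusted p = 4.09e-08), and NDA2 rose by 1.18 ± 0.14 (adjusted p = 1.11e-06).

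Jasmonate genes divided between breakdown and synthesis. Of 9 measured inactivation genes 7 rose and none fell, with a median of 3.79. CYP94C1 (AT2G27690) and CYP94B1 (AT5G63450), which oxidise the active conjugate jasmonoyl-isoleucine, had 50.3, 67.3 and 77 and 50.0, 51.3 and 71.7 CPM under submergence, against 7.1, 4.89 and 1.95 and 9.28, 12 and 10.6 CPM in mock. Their log2 fold changes were 3.79 ± 0.44 and 2.41 ± 0.19 (adjusted p = 8.18e-05 and 5.55e-08). AT5G05600, another oxygenase of the family, had 374, 427 and 603 CPM under submergence, against 19.6, 19.3 and 11.9 CPM in mock (log2 fold change 4.77 ± 0.29, adjusted p = 1.76e-07), and the amidohydrolase gene IAR3 (AT1G51760) had 65.8, 71.3 and 87.8 CPM under submergence, against 36.1, 35.9 and 33.6 CPM in mock (log2 fold change 1.07 ± 0.11, adjusted p = 2.36e-07). All were above mock in every submerged library.

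Synthesis genes showed no common direction, with 4 of 11 measured up and 4 down and a median of 0.11, which turned negative without mock replicate 3 or submergence replicate 3 (-0.23 and -0.24). LOX4 (AT1G72520), a lipoxygenase at the entry of the pathway, had 3.26, 3.73 and 5.29 CPM under submergence, against 206, 146 and 93.9 CPM in mock (log2 fold change -5.22 ± 0.37, adjusted p = 1.72e-06), and LOX3 (AT1G17420) had 14, 14.1 and 22.2 CPM under submergence, against 133, 98.2 and 34.1 CPM in mock (log2 fold change -2.42 ± 0.52, adjusted p = 0.00412). AOC1 (AT3G25760), an allene oxide cyclase, had 85.4, 111 and 163 CPM under submergence, against 28.2, 29.9 and 28.9 CPM in mock (log2 fold change 2.03 ± 0.22, adjusted p = 1.62e-05). The lipoxygenase genes were lower and the cyclase gene higher in every submerged library, with mock replicate 3 the lowest mock library for LOX3 and LOX4. The AOC genes are close copies, so their single values are uncertain. Of 13 JAZ genes, the repressors that jasmonate removes, 5 rose and 5 fell, and 4 fell and none rose at least 2-fold. JAZ12 (AT5G20900) (log2 fold change 0.87 ± 0.12, adjusted p = 6.44e-06) and JAZ11 (log2 fold change 0.80 ± 0.14, adjusted p = 9.46e-05) rose. JAZ5 (AT1G17380) had 3.07, 3.81 and 6.62 CPM under submergence, against 26, 24.7 and 7.96 CPM in mock (log2 fold change -2.17 ± 0.48, adjusted p = 0.00407), with mock replicate 3 close to the submerged libraries. The number that fell was 2 without mock replicate 1, mock replicate 2, submergence replicate 1 or submergence replicate 2.

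Early stress transcription factors fell as a group. These genes are known for brief rises after cold, touch, wounding or microbial signals. Of 27 members 26 were measured, 1 rose and 19 fell, all 19 at least 2-fold, with a median of -2.52. WRKY40 (AT1G80840), a factor of defence, had 20.2, 27.3 and 27.7 CPM under submergence, against 373, 320.3 and 200.0 CPM in mock (log2 fold change -3.59 ± 0.29, adjusted p = 3.81e-06). WRKY33 (AT2G38470) had 74.7, 62 and 91.9 CPM under submergence, against 560.0, 412 and 353 CPM in mock (log2 fold change -2.56 ± 0.16, adjusted p = 5.97e-09), and ERF6 (AT4G17490), an ERF activator, had 21, 29.7 and 34.9 CPM under submergence, against 181, 184 and 187 CPM in mock (log2 fold change -2.71 ± 0.16, adjusted p = 1.57e-09). The submerged libraries were all below the mock libraries, and within mock the WRKY genes were lowest in replicate 3. CZF1 (AT2G40140), a zinc finger gene, had 98.2, 109.6 and 118 CPM under submergence, against 517, 474 and 363 CPM in mock (log2 fold change -2.07 ± 0.14, adjusted p = 2.16e-09). The calmodulin-like touch gene TCH2 (AT5G37770) had 29.1, 30.7 and 27.9 CPM under submergence, against 166, 169.5 and 147 CPM in mock (log2 fold change -2.48 ± 0.28, adjusted p = 5.13e-05), while TCH3 was the 1 gene that rose (log2 fold change 0.75 ± 0.14, adjusted p = 0.000354). CBF4 had 0 counts in all submerged libraries, against 7.45, 5.14 and 1.41 CPM in mock. Over the reported fit and the alternatives run, the list held 1 rise and 18 to 21 falls. The 21 falls came without mock replicate 3, the lowest mock library for the WRKY genes.

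Cold and dehydration genes that CBF factors are known to activate rose while the CBF genes fell. Of 11 members 9 rose, each at least 2-fold, and none fell, with a median of 2.41. KIN2 (AT5G15970), a small hydrophilic stress protein, had 432, 450.3 and 573 CPM under submergence, against 24, 27.6 and 25.2 CPM in mock (log2 fold change 4.22 ± 0.18, adjusted p = 3.62e-11). RD29A (AT5G52310), a dehydration-responsive gene, had 214, 247 and 278 CPM under submergence, against 26.4, 31.6 and 24.7 CPM in mock (log2 fold change 3.14 ± 0.18, adjusted p = 8.90e-09). XERO2 (AT3G50970), a dehydrin, had 256, 339 and 306 CPM under submergence, against 43.2, 42.2 and 28.1 CPM in mock (log2 fold change 2.97 ± 0.20, adjusted p = 8.98e-08). For the 3 genes the submerged libraries lay several-fold above all mock libraries. COR47 (AT1G20440), another dehydrin, had 1017, 1492 and 1246 CPM under submergence, against 401, 453 and 306 CPM in mock (log2 fold change 1.68 ± 0.16, adjusted p = 3.10e-07), and COR15A (AT2G42540), a chloroplast protein that protects membranes in the cold, had 55, 25.6 and 127 CPM under submergence, against 1.66, 1.2 and 0.622 CPM in mock (log2 fold change 5.87 ± 1.17, adjusted p = 0.00309), with replicate 3 the highest submerged library. ERD10, a dehydrin close to COR47, had 127, 164 and 149.8 CPM under submergence, against 217, 181 and 108 CPM in mock and was not called (adjusted p = 0.513).

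The known CBF binding site, the C-repeat element, has the core CCGAC. The 250 bases before the gene start of 4 of these genes are printed here because their levels rose while the factors' transcripts fell, and because they differ in this core. They were read from the TAIR10.1 assembly with the RefSeq annotation by gene ID, 5′ to 3′ on the gene's strand, with every CCGAC, or GTCGG where it lies on the other strand, in capitals. RD29A lies at chr5:21240467-21240716 (plus strand), XERO2 at chr3:18940393-18940642 (plus strand), COR15A at chr2:17712331-17712580 (minus strand) and KIN2 at chr5:5211469-5211718 (plus strand).
RD29A: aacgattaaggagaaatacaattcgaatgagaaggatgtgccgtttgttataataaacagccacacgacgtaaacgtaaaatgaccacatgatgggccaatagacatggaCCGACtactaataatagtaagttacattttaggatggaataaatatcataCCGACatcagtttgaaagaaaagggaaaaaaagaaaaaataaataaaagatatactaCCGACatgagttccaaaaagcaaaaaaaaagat
XERO2: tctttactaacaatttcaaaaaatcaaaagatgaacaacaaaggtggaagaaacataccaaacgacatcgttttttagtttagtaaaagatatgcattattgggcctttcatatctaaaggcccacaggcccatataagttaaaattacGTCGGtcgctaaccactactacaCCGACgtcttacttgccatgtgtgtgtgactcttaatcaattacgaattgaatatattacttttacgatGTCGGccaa
COR15A: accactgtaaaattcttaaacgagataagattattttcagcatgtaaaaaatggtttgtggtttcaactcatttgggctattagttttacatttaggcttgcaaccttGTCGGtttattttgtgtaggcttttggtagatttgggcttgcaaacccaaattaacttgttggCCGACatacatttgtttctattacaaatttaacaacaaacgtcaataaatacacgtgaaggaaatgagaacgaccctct
KIN2: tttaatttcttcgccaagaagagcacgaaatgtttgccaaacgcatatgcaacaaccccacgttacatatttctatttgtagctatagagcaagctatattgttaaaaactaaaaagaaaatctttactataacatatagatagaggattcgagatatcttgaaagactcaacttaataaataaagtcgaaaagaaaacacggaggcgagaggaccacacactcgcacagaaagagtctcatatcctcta
RD29A and XERO2 held 3 cores each in this window, COR15A held 2, and KIN2, with the second largest fold of the 4, held 0. The cores of RD29A began 140, 90 and 33 bases before the gene start, and those of COR15A 142 and 79 bases before it. Over the 11 genes 6 windows held the core (54.5%), against 13.7% of the genes that rose, 11.3% of those that fell and 12.7% of all tested nuclear genes. The 11 genes were listed as known CBF targets, so the choice of members itself favours a high share. A match is only a stretch of letters, and its absence says nothing of sites elsewhere.

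**Figure D4:**
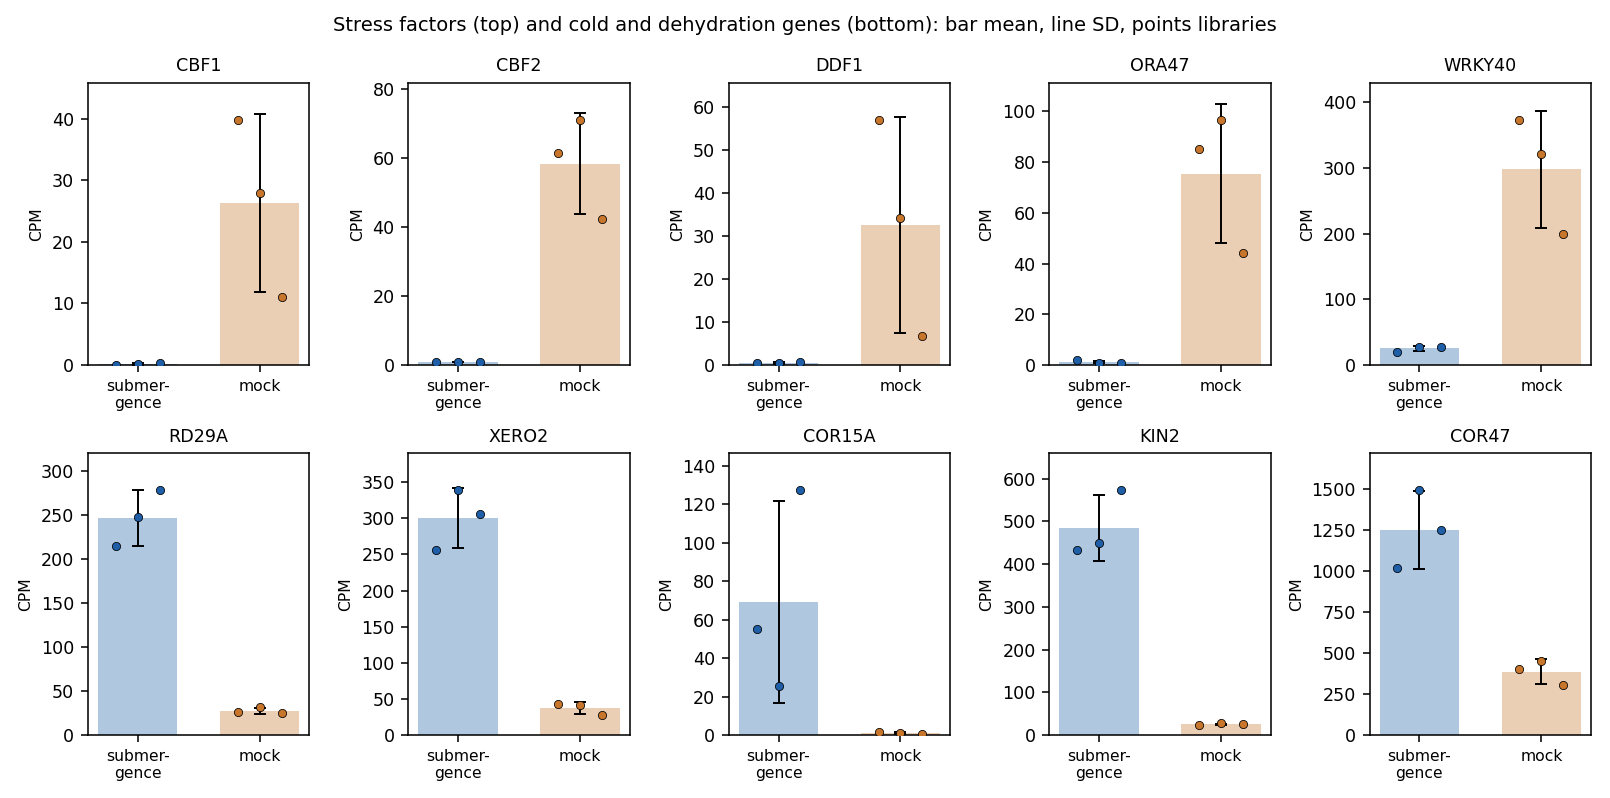
CPM of 5 stress transcription factor genes (top row) and 5 cold and dehydration genes (bottom row) in Col of the bak set, submergence left and mock right; bars are means, lines SD and points the 3 libraries. CBF2 lies at 0.729 to 0.78 CPM under submergence and at 42.5 to 71.2 CPM in mock, while KIN2 lies at 432 to 573 CPM under submergence and at 24 to 27.6 CPM in mock.

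Nitrate and ammonium genes moved both ways. Of 14 measured members 7 rose and 6 fell. NRT3.1 (AT5G50200), the partner protein of high-affinity nitrate transporters, had 125, 129.7 and 148 CPM under submergence, against 20.6, 21 and 18.4 CPM in mock (log2 fold change 2.73 ± 0.14, adjusted p = 4.19e-11), and the transporter gene NRT1.7 (AT1G69870), which moves nitrate out of old leaves, had 165, 168 and 252 CPM under submergence, against 59.8, 61.1 and 57.3 CPM in mock (log2 fold change 1.7 ± 0.15, adjusted p = 8.11e-08). NIR1 (AT2G15620), nitrite reductase, had 90.9, 120.4 and 133 CPM under submergence, against 514, 531 and 472 CPM in mock (log2 fold change -2.16 ± 0.13, adjusted p = 2.25e-10), and GLT1 (AT5G53460), a glutamate synthase, had 296, 235 and 310.5 CPM under submergence, against 917, 982 and 921 CPM in mock (log2 fold change -1.77 ± 0.10, adjusted p = 1.54e-10). NRT3.1 and NRT1.7 thus lay above mock and NIR1 and GLT1 below it, in every library. The ammonium transporter gene AMT1;2 and the nitrate reductase gene NIA2 fell, with log2 fold changes of -1.95 ± 0.10 and -0.91 ± 0.13 (adjusted p = 3.75e-11 and 7.03e-06).

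Phosphate, sulfur and iron acquisition genes also moved both ways. Phosphate starvation genes rose in 6 and fell in 3 of 14 measured. The phosphate transporter gene PHT1;4 (AT2G38940) (log2 fold change 1.49 ± 0.19, adjusted p = 2.72e-06) and SPX1 (AT5G20150), a phosphate sensor gene (log2 fold change 1.77 ± 0.25, adjusted p = 7.00e-05), were among those that rose. Sulfur assimilation genes rose in 3 and fell in 8 of 19, with the root sulfate transporter gene SULTR1;2 (AT1G78000) at 227, 279.8 and 344 CPM under submergence, against 50.4, 64.8 and 63.6 CPM in mock (log2 fold change 2.23 ± 0.24, adjusted p = 2.23e-05). Iron genes rose in 7 and fell in 8 of 19 measured, and only 4 rose without mock replicate 2 or without submergence replicate 1. NAS1 (AT5G04950), which makes the metal chelator nicotianamine, had 11.3, 4.29 and 8.52 CPM under submergence, against 71.5, 73.4 and 74.7 CPM in mock (log2 fold change -3.20 ± 0.23, adjusted p = 1.61e-07), and the ferritin gene FER3 (AT3G56090), 1 of 2 that fell among 4 iron storage genes, had 24, 21.7 and 16.8 CPM under submergence, against 85.6, 52.1 and 46.3 CPM in mock (log2 fold change -1.57 ± 0.25, adjusted p = 0.000319). The reductase gene FRO3 (AT1G23020) had 193, 134 and 180.3 CPM under submergence, against 78.4, 69.6 and 80.2 CPM in mock (log2 fold change 1.13 ± 0.11, adjusted p = 8.98e-08), with all submerged libraries above mock. Many nutrient carriers are root genes. Beside them the 9 root markers summed to 1302 to 1724 CPM under submergence, against 3170.0 to 3267 CPM in mock, mostly PYK10. Singly, 2 of the 9 rose, 1 fell and 6 were not called. Their median log2 fold change was -0.15, and 0.23 without mock replicate 2. The part of any difference in root tissue in these results was not tested.

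Aliphatic glucosinolates are sulfur-rich defence compounds, and their genes fell nearly as a whole. Of 16 measured members 15 fell and 1 rose, with a median of -1.79, and 12 fell at least 2-fold. The regulator gene MYB29 (AT5G07690) had 0.345, 0.0433 and 0.476 CPM under submergence, against 10.5, 12.2 and 13.3 CPM in mock (log2 fold change -5.39 ± 0.39, adjusted p = 1.51e-09). MAM1 (AT5G23010), of methionine chain extension, had 33.9, 24.3 and 35.9 CPM under submergence, against 119, 151 and 133 CPM in mock (log2 fold change -2.12 ± 0.14, adjusted p = 8.41e-10), and CYP83A1 (AT4G13770), of the core pathway, had 19.5, 13.8 and 21.6 CPM under submergence, against 89.4, 107 and 95.7 CPM in mock (log2 fold change -2.43 ± 0.15, adjusted p = 4.79e-10). GSTU20 (AT1G78370), a glutathione transferase, had 30.6, 19.6 and 22.2 CPM under submergence, against 164, 181 and 187 CPM in mock (log2 fold change -2.90 ± 0.15, adjusted p = 1.93e-10). Submerged libraries were below mock in each. The 1 rise was that of MAM3 (log2 fold change 0.46 ± 0.14, adjusted p = 0.0101), a call lost without mock replicate 3 or submergence replicate 1 (adjusted p = 0.0528 and 0.0599).

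Surface and growth genes fell in part. Of 13 measured wax genes 7 fell and 2 rose, and the alkane synthesis gene CER1 (AT1G02205) had 20.8, 8.88 and 12.6 CPM under submergence, against 66.6, 60.5 and 62.6 CPM in mock (log2 fold change -2.18 ± 0.22, adjusted p = 3.55e-06). Of 11 expansins, which loosen cell walls, 7 fell and 1 rose (median -1.57). EXPA8 (AT2G40610) had 5.45, 4.03 and 4.62 CPM under submergence, against 50.1, 37.3 and 44.2 CPM in mock (log2 fold change -3.23 ± 0.19, adjusted p = 2.20e-10), and EXPA6 (AT2G28950) had 20.3, 12.8 and 13.3 CPM under submergence, against 82.8, 65.1 and 77 CPM in mock (log2 fold change -2.29 ± 0.14, adjusted p = 1.72e-10), while EXPA16 (AT3G55500) rose, with 12.7, 7.45 and 12.1 CPM under submergence, against 1.66, 1.2 and 2.12 CPM in mock (log2 fold change 2.69 ± 0.24, adjusted p = 4.27e-08). Water channel genes divided, with 5 up and 8 down of 19. PIP1;4 (AT4G00430) had 97.2, 82.1 and 87.7 CPM under submergence, against 269.7, 255 and 270.3 CPM in mock (log2 fold change -1.59 ± 0.09, adjusted p = 6.42e-11), and PIP1;1 (AT3G61430) had 561, 632 and 604 CPM under submergence, against 343, 389 and 356 CPM in mock (log2 fold change 0.71 ± 0.09, adjusted p = 4.81e-06).

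Cell division genes fell. Of 25 members 0 rose and 20 fell, with a median of -0.71. CYCD1;1 (AT1G70210), a cyclin of entry into division, had 8.9, 7.97 and 5.86 CPM under submergence, against 33, 27.5 and 28.3 CPM in mock (log2 fold change -1.97 ± 0.15, adjusted p = 4.87e-09), and PCNA1 (AT1G07370), the clamp of DNA replication, had 5.56, 4.33 and 3.33 CPM under submergence, against 15.3, 13.9 and 14.8 CPM in mock (log2 fold change -1.73 ± 0.18, adjusted p = 1.72e-07). The replication helicase genes MCM2 to MCM7 all fell, with log2 fold changes between -1.41 (MCM3) and -0.73 (MCM5). Of 8 genes of KRP and SMR inhibitors of division 1 rose, AT2G32710 (log2 fold change 0.74 ± 0.13, adjusted p = 0.000109), and none fell. Each submerged library of CYCD1;1 and PCNA1 was below each mock library. Of 300 nuclear genes whose RefSeq product names a ribosomal protein, some of which encode organelle or elongation factor proteins, 268 were measured, 24 rose and 116 fell (median -0.23). These genes held 2.39, 2.3 and 2.08% of counts under submergence, against 2.84, 2.61 and 2.76% in mock. Of 8 ER folding genes 5 rose, led by BIP3 (AT1G09080), a stress-induced chaperone of the endoplasmic reticulum, with 8.32, 13.7 and 4.76 CPM under submergence, against 0.479, 0.109 and 0.497 CPM in mock (log2 fold change 4.65 ± 0.68, adjusted p = 0.000114). Without submergence replicate 3 the number that rose was 2, and without mock replicate 2 it was 3. Transcripts encoded in the organelles rose in 9 of 74 measured chloroplast genes and 1 of 22 measured mitochondrial genes, and none fell.

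The genes under study responded in Col itself. BAK1 (AT4G33430), a co-receptor kinase of brassinosteroid and immune receptors, had 121, 131 and 142 CPM under submergence, against 85.9, 76.2 and 68.6 CPM in mock (log2 fold change 0.75 ± 0.11, adjusted p = 8.28e-06), without overlap. Its close relative BKK1 (AT2G13790) had 42.9, 50.5 and 48 CPM under submergence, against 43.7, 33.5 and 30.4 CPM in mock (log2 fold change 0.38 ± 0.13, adjusted p = 0.0196), and mock replicate 1 reached into the submerged range. The BKK1 call was lost without mock replicate 2 or 3 or submergence replicate 2 or 3 (adjusted p = 0.0786, 0.108, 0.0902 and 0.0556). TCP21 (AT5G08330), a class I TCP factor that binds the CCA1 promoter, had 12, 12.3 and 10.4 CPM under submergence, against 51, 55.2 and 51.7 CPM in mock (log2 fold change -2.20 ± 0.20, adjusted p = 2.87e-07), every submerged library far below mock. The mutant bak1-3 bkk1-1 showed -1.88 ± 0.20 for TCP21, and the difference of the responses was -0.32 ± 0.28 (adjusted p = 0.823).

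Beside Col, the mutant bak1-3 bkk1-1 of the same set changed 11072 of the 20666 genes (53.6%). A test of the difference between the responses called 10 genes (0.0484%). The log2 fold change was higher in Col for 8 (0.0387%) and lower for 2 (0.00968%), while 1579 genes had an unadjusted p below 0.05. In simulated data this test recovered 62 of 100 2-fold and 7 of 100 1.5-fold changes, so few calls do not show equal responses. AT2G22510 changed by -0.87 ± 0.16 in Col and by -2.68 ± 0.19 in the mutant, a difference of 1.81 ± 0.25 (adjusted p = 0.0109). AT2G41090 changed by 0.46 ± 0.13 in Col and by -0.81 ± 0.12 in the mutant, a difference of 1.27 ± 0.18 (adjusted p = 0.0109). In Col AT2G41090 had 56.8, 41.9 and 45.1 CPM under submergence, against 32.2, 34.6 and 36.3 CPM in mock. In the mutant it had 40.2, 48.1 and 51.55 CPM under submergence, against 81.6, 97.1 and 74.2 CPM in mock. The submerged levels thus overlapped, and the mock levels did not. XTH20 (AT5G48070), a xyloglucan-modifying enzyme gene, had 6.44, 3.98 and 4.76 CPM under submergence, against 5.79, 5.87 and 5.64 CPM in mock in Col, and 1.26, 1.37 and 1.4 CPM under submergence, against 6.04, 7.19 and 5.88 CPM in mock, in the mutant. The XTH20 difference was 2.00 ± 0.33 (adjusted p = 0.0417), with overlap of the Col groups and none in the mutant.

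The remaining 7 differences had adjusted p values of 0.0417 to 0.0471. PAL4 (AT3G10340), of phenylpropanoid synthesis, changed by -0.05 ± 0.11 in Col and -1.08 ± 0.12 in the mutant. OCT3 (AT1G16390), an organic cation transporter gene, rose in both, by 1.33 ± 0.10 and 2.14 ± 0.10, as did AT5G25260, by 7.40 ± 0.32 and 4.16 ± 0.21. In the mutant AT5G25260 had 69.9, 71 and 88.9 CPM under submergence, against 5.51, 4.725 and 3.03 CPM in mock. It lay above Col in both conditions, and the larger fold in Col rests on 22 counts in Col mock. The calls were not stable. Leaving out 1 library of the 12 left between 0 and 11 genes with the higher and between 0 and 4 with the lower fold change in Col. Without the first submerged library of the mutant 0 were left in all. Of the 10 genes called with all libraries, 0 to 6 were called again. DESeq2 called 64 higher and 35 lower. These differences use the same Col libraries as the results above.

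Col of the tcp set gives a comparison under the same labels in other libraries, and the responses differed widely. In a joint fit of the 12 Col libraries 20475 genes were tested, 11065 were called in the bak set (54%), 8770 in the tcp set (42.8%) and 9706 in the difference of the responses (47.4%). In both sets 1591 genes rose and 1524 fell. Of the 5389 genes that rose in the bak set 915 fell in the tcp set, a smaller share than the 21.5% of all genes tested. Of the 5676 that fell in the bak set 1181 rose in the tcp set, also a smaller share than the 21.3% of all. Of the genes that rose in the bak set 29.5% rose in the tcp set, against 21.3% of all genes tested, and of those that rose in the tcp set 36.5% rose in the bak set, against 26.3% of all. Of the genes that fell in the bak set 26.8% fell in the tcp set, against 21.5% of all, and of those that fell in the tcp set 34.5% fell in the bak set, against 27.7% of all. The difference of the responses was called higher in the bak set for 23.3% of all genes and lower for 24.1%, and counts over lists are to be read against these shares. For mock replicate 1 of Col in the tcp set the genotype label reads bak1-3 bkk1-1 although title and strain read Col, and it was kept as Col. The sets differ in all libraries, so set and any unnamed difference in growth, timing or handling cannot be told apart.

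Some groups moved in both sets. KIN2 (AT5G15970) rose by 4.2 ± 0.14 in the bak set and by 3.01 ± 0.13 in the tcp set, and RD29A (AT5G52310) by 3.12 ± 0.14 and 4.76 ± 0.16. EXPA8 (AT2G40610) fell in both, at -3.26 ± 0.14 and -3.15 ± 0.17, a difference of -0.11 ± 0.25 (adjusted p = 0.757). ARGOS (AT3G59900) rose by 3.06 ± 0.15 and 4.32 ± 0.23, and ST2A (AT5G07010) by 6.75 ± 0.21 and 1.61 ± 0.19. List medians of the cold and dehydration genes were 2.38 in the bak set, against 3.82 in the tcp set, and those of expansins -1.59 and -1.13.

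Starvation and ethylene lists differed between the sets. The branched-chain list had a median of 1.89 in the bak set, against -0.39 in the tcp set, where 2 members rose and 8 fell, and 14 of 17 differences were called higher in the bak set. BCAT2 (AT1G10070) changed by 5.05 ± 0.21 in the bak set, against -0.69 ± 0.18 in the tcp set (adjusted p of the difference = 2.25e-09), and ALDH6B2 (AT2G14170) by 2.24 ± 0.09 and -0.58 ± 0.09 (adjusted p of the difference = 7.34e-12). In the tcp set BCAT2 had 160, 191 and 184 CPM under submergence, against 290, 309 and 347 CPM in mock. Its mock libraries of the bak set had 16.8, 23 and 32 CPM, so the mock levels also differed between the sets. In the tcp set ALDH6B2 had 174, 195 and 188 CPM under submergence, against 295, 305 and 314 CPM in mock. For both genes mock lay above submergence there. CTR1 (AT5G03730) changed by 2.07 ± 0.08 and 0.11 ± 0.09 (adjusted p of the difference = 3.18e-10), and the ethylene list had medians of 1.87 and -0.03, with 12 of 15 differences called higher in the bak set. Autophagy medians were 0.68 and 0.09, with ATG8E (AT2G45170) at 1.96 ± 0.12 and 1.27 ± 0.11 (adjusted p of the difference = 0.00167).

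Photosystem, cell cycle and glucosinolate lists had medians of opposite sign in the 2 sets. Photosystem and Calvin cycle genes had a median of -0.68 in the bak set, against 0.34 in the tcp set, where 39 of 56 rose, and 54 of 56 differences were called lower in the bak set. RCA (AT2G39730) changed by -1.24 ± 0.09 and 0.30 ± 0.09 (adjusted p of the difference = 1.29e-08). Cell cycle medians were -0.73 and 0.73, with 12 of 25 genes up in the tcp set. Aliphatic glucosinolate genes had medians of -1.81 and 2.46, and CYP83A1 (AT4G13770) changed by -2.46 ± 0.15 and 3.88 ± 0.31 (adjusted p of the difference = 1.51e-10). In the tcp set CYP83A1 had 12.7, 10.6 and 9.76 CPM under submergence, against 0.339, 1.55 and 0.666 CPM in mock. Jasmonate synthesis medians were 0.16 and 2.42, and LOX3 (AT1G17420) changed by -2.44 ± 0.47 and 2.08 ± 0.44 (adjusted p of the difference = 0.000453).

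Early stress factors had lower responses in the bak set. Their medians were -2.54 in the bak set, where 20 fell and 1 rose, against 0.09 in the tcp set, where 3 fell and 7 rose, and 20 of 26 differences were called lower in the bak set. WRKY40 (AT1G80840) changed by -3.61 ± 0.34 and 0.05 ± 0.31, ORA47 (AT1G74930) by -6.02 ± 0.35 and 1.04 ± 0.45, and CBF2 (AT4G25470) by -6.31 ± 0.26 and -2.64 ± 0.21 (adjusted p of the differences = 0.000116, 1.14e-06 and 1.53e-06). TCP21 (AT5G08330) changed by -2.23 ± 0.11 in the bak set and by -0.29 ± 0.09 in the tcp set (adjusted p of the difference = 4.33e-09). BKK1 (AT2G13790) changed by 0.36 ± 0.13 and 1.2 ± 0.13, and BAK1 (AT4G33430) by 0.73 ± 0.10 and 0.20 ± 0.10 (adjusted p of the differences = 0.000877 and 0.00319).

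The most different responses belonged to genes near 0 in 1 of the sets. FRK1 (AT2G19190), an immune receptor kinase gene, had 60.6, 31.5 and 66.6 CPM under submergence, against 1.0, 0.766 and 2.57 CPM in mock in the bak set, and 0.422, 0.237 and 0.137 CPM under submergence, against 1.35, 2.0 and 1.55 CPM in mock in the tcp set. BIP3 (AT1G09080) had 1.23, 1.37 and 2.14 CPM under submergence, against 10.1, 8.76 and 9.38 CPM in mock in the tcp set, the opposite direction to the bak set. IRT1 (AT4G19690), the root iron uptake carrier, had 54.1, 45 and 52.1 CPM under submergence, against 104, 70.7 and 79.4 CPM in mock in the bak set, and 11.5, 11.3 and 10.8 CPM under submergence, against 0 CPM in all 3 mock libraries, in the tcp set. CYP79F1 had 7.86, 5.96 and 6.29 CPM under submergence, against 0.0484, 0 and 0 CPM in mock in the tcp set. NRT2.1, the nitrate transporter, had 8.13, 5.59 and 9.05 CPM under submergence, against 0, 0.328 and 0.0415 CPM in mock in the bak set and at most 0.194 CPM in any library of the tcp set. Such low groups make a fold unstable, so levels stand in its place.

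**Figure D5:**
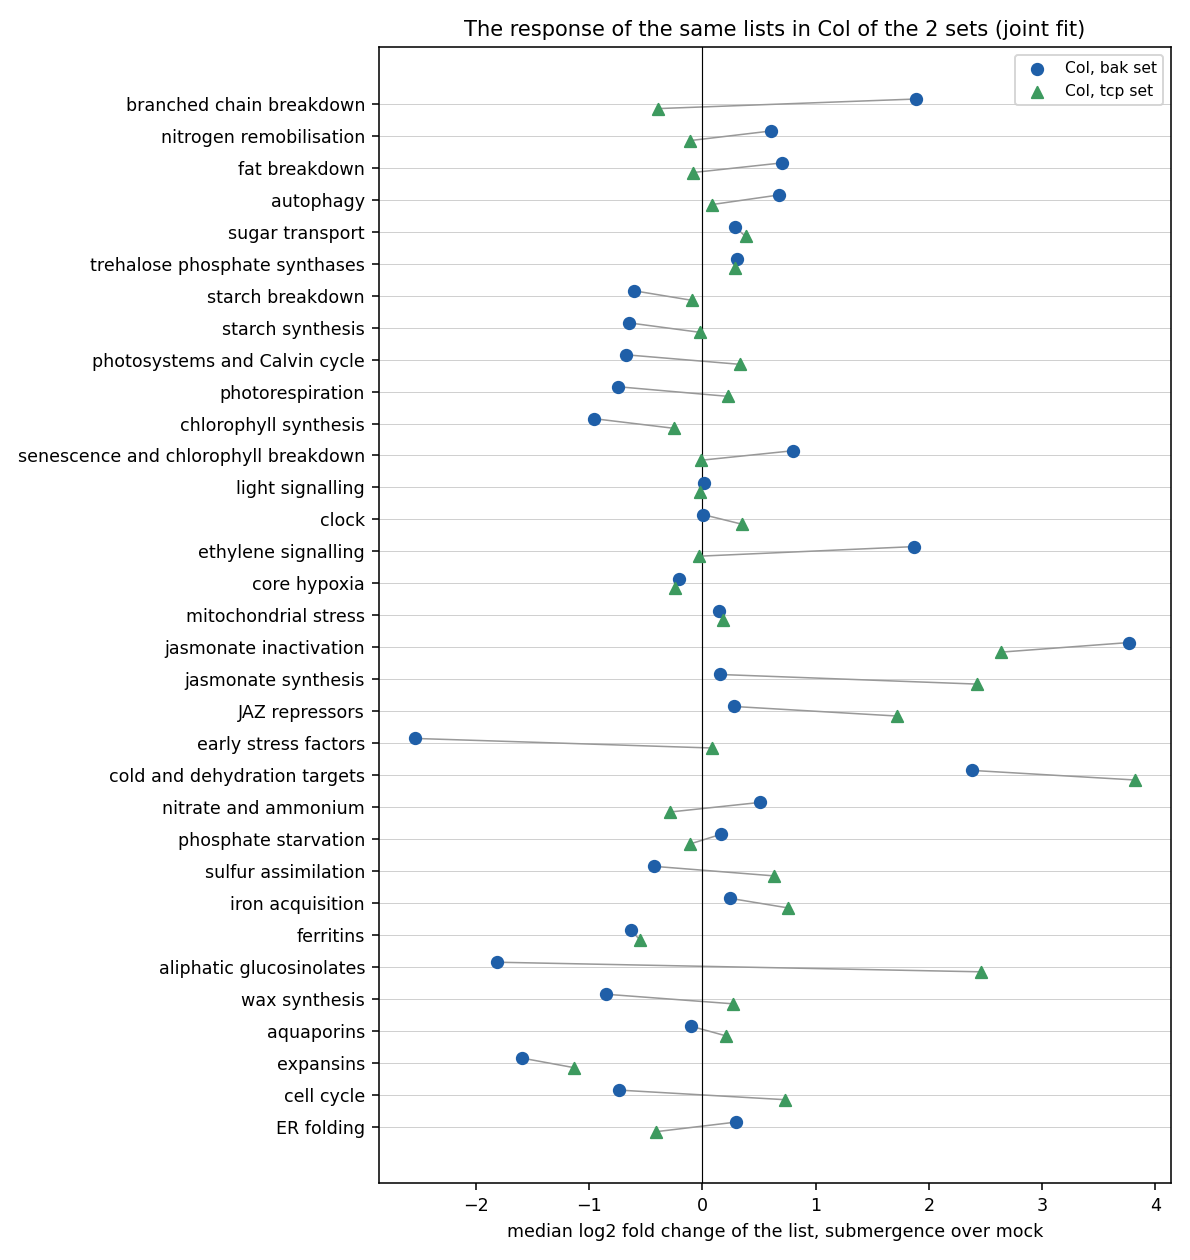
Median log2 fold change, submergence over mock, of 33 gene lists for Col of the bak set (circles) and Col of the tcp set (triangles), from the joint fit of the 12 Col libraries. The branched-chain list lies at 1.89 and -0.39 and the aliphatic glucosinolate list at -1.81 and 2.46, while expansins lie at -1.59 and -1.13.

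Promoters were searched for 7 motifs, and most lay in like shares of the genes that rose and of those that fell. In the 250 bases before the gene start, both strands counted, the evening element core AATATCT lay in 11% of the genes that rose and 10.7% of those that fell, against 10.2% of all tested nuclear genes. The G-box CACGTG lay in 7.46%, 8.06% and 7.43% of the same groups, and the class I TCP core GGNCCC in 8.1%, 8.53% and 8.13%. The site II element TGGGCC, which can overlap the TCP core, lay in 15.8% of the genes that rose and 14.7% of those that fell, against 15.9% of all. Among genes changed at least 2-fold it lay in 8.9% of those that rose and 8.63% of those that fell. In the 300 ribosomal protein genes it lay in 47.7%. The telo box core AAACCCT lay in 5.62% of the genes that rose and 5.37% of those that fell, against 6.19% of all. The CRT core CCGAC lay in 13.7% and 11.3%, against 12.7% of all, and in 13.3% and 9.8% of genes that rose or fell at least 2-fold. The CAMTA core CGCGT lay in 6.99% and 8.61%, against 7.51% of all, and in 7.65% and 9.61% at 2-fold or more. These cores gave the widest gaps, the first toward genes that rose and the second toward genes that fell, and no test was run on them. These shares describe letters in a window and not binding.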

How the data were processed

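The authors deposited tables of raw counts per gene ID for whole libraries, 1 per set. Reads came from poly-T selected mRNA with random hexamer priming, per the labels' protocols. The submitters' processing notes name TAIR10, fastp 0.23.1 and STAR 2.7.9a. Which tool counted, with what annotation and whether by strand is not given in the sources used here, so genes that overlap or have close copies are uncertain.

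From these counts, edgeR 4.0.16 (R 4.3.3) with limma 3.58.1 filtered genes by its default rule, computed TMM factors and fitted a robust quasi-likelihood model to the 12 libraries of the bak set (Col and bak1-3 bkk1-1, each submerged and mock), with no block. Contrasts gave the Col response and its difference from the mutant. A second model held the 12 Col libraries of both sets. P-values were adjusted by Benjamini and Hochberg over all genes tested. SE is the log2 fold change divided by the root of F, an approximation. CPM divide counts by the library total. Each fit was tested on simulated data in which 100 genes changed 2-fold and 100 changed 1.5-fold. The test of the Col response recovered 79 and 41 of them, with 4% of its calls false. The test of the difference from the mutant recovered 62 and 7, with 6.76% false, and that between the sets 53 and 9, with 4.62% false. The changed genes were not drawn from those with the lowest levels, and all other genes had the same mean in every group. In the data 50.5% of genes were called for the Col response and 47.4% for the difference between the sets. The simulated shares need not hold for those tests.

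Genes were named as the 10 largest rises and the 10 largest falls. These were taken among called nuclear genes that average 5 CPM or more in the higher group with no overlap of the libraries. Also named were the 8 largest gains and 8 largest losses in CPM among called genes, up to 4 called members of each list, and BAK1, BKK1 and TCP21. The 6 largest differences each way between the sets were taken among called nuclear genes that average 5 CPM or more in the highest group, with no rule on overlap. Further list members were named after their values were seen. The members and lists were chosen with earlier results of these data known. Symbols and products come from RefSeq (TAIR10.1), in which 32548 of 32833 IDs were found and 285 were not. Promoter windows of 250 bases before the gene start were read from the TAIR10.1 genome by gene ID. Their coordinates are those of TAIR10.1, and the deposited tables hold none. Alternatives were DESeq2 1.42.0, other size factors, no filter, nuclear genes only, a replicate block, the 6 libraries alone, estimates that are not robust and leaving out each library.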

Additional observations from a re-analysis of the deposited data

Results flagged for a closer look

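The response of Col to submergence differed from that of bak1-3 bkk1-1 by the test of the difference itself in 10 genes, given here as Col minus mutant on the log2 scale (edgeR quasi-likelihood test, adjusted over 20666 genes). The difference was 3.24 ± 0.54 for AT5G25260 (adjusted p = 0.0471), 2.05 ± 0.36 for CYP86B1 (0.0471), 2.05 ± 0.30 for AT5G42530 (0.0471), 2.00 ± 0.33 for XTH20 (0.0417) and 1.81 ± 0.25 for AT2G22510 (0.0109). It was 1.27 ± 0.18 for AT2G41090 (0.0109), 1.03 ± 0.17 for PAL4 (0.0417), 0.69 ± 0.12 for UGT72E1 (0.0471), -0.81 ± 0.14 for OCT3 (0.0471) and -1.36 ± 0.24 for AT2G39710 (0.0471). These 10 calls were not stable. DESeq2 and nuclear genes only kept 10 of them, no filter 9, and estimates that are not robust 6. Size factors of DESeq2 in edgeR kept 4, the replicate block 3, the block by column number 4, and leaving out 1 library 0 to 6.

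Between the sets the response of Col differed, given as bak minus tcp on the log2 scale with adjusted p below 0.05 for each gene named here. Among the largest differences with the higher value in the bak set were 9.53 ± 3.35 for NRT2.1, 8.76 ± 0.43 for AT5G25260, 7.70 ± 1.99 for AT2G17740, 7.56 ± 1.00 for FRK1 and 7.07 ± 0.63 for BIP3. That of AT1G26240 was 6.65 ± 2.42, but in the bak set this gene had counts in 1 of 6 libraries, submergence replicate 2 at 0.476 CPM, so the value rests on that library, and the call was lost without mock replicate 1 or 2 of the bak set (adjusted p = 0.0507 and 0.0536) or without that library (1.88, adjusted p = 1). That of NRT2.1 was 5.72 (adjusted p = 1) without mock replicate 1 of the tcp set, the library whose genotype label reads bak1-3 bkk1-1 and the only Col library of that set with counts of NRT2.1. The largest with the lower value were -14.01 ± 0.51 for CYP79F1, -11.94 ± 0.64 for IRT1, -10.26 ± 1.23 for CYP82C4, -9.96 ± 0.77 for MYB29, -9.74 ± 1.5 for AT1G06100 and -8.47 ± 0.81 for FMO GS-OX3. NRT2.1, AT2G17740, AT1G26240, CYP79F1, IRT1, CYP82C4, MYB29, AT1G06100 and FMO GS-OX3 had a group with 10 counts or fewer, where the fitted value depends on the prior count and is no bound.

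Among genes described in the report the difference was -6.34 ± 0.33 for CYP83A1, 2.81 ± 0.13 for ALDH6B2, 5.74 ± 0.27 for BCAT2, 1.96 ± 0.12 for CTR1, -1.26 ± 0.33 for ARGOS and -1.53 ± 0.12 for RCA. It was -3.66 ± 0.45 for WRKY40, -7.06 ± 0.60 for ORA47, -3.66 ± 0.41 for CBF2, -4.52 ± 0.64 for LOX3 and 5.14 ± 0.30 for ST2A. It was 1.19 ± 0.18 for KIN2, -1.65 ± 0.20 for RD29A, 0.69 ± 0.16 for ATG8E, -1.94 ± 0.15 for TCP21, 0.54 ± 0.14 for BAK1 and -0.84 ± 0.18 for BKK1.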

How the results depend on the processing

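The numbers of genes that rose or fell in Col stayed within 1.5 times the reported 5317 and 5124 under every alternative run, and so did the counts of at least 2-fold changes. Leaving out 1 of the 6 libraries gave 4682 to 5259 genes that rose and 4527 to 5007 that fell, DESeq2 gave 5176 and 5325, and a fit of the 6 Col libraries alone gave 4925 and 4799. The replicate block gave 5288 and 5100. Same-numbered libraries did not deviate together (correlations 0.0123, -0.0222 and -0.0725). With 3 libraries per group this check cannot decide whether the numbers pair the samples. The submerged Col columns are numbered 2, 3 and 4 in the deposited table, 1 above their titles, and mock columns 1, 2 and 3. Paired by column number, numbers 2 and 3 correlated at -0.0322 and 0.049, and the block by column number, chosen after seeing the data, gave 4568 and 4356 for Col and 10 and 0 for its difference from the mutant. That block ended the calls of BKK1 and AT2G26800 in Col (adjusted p = 0.0606 and 0.0658) and turned the median of jasmonate synthesis genes to -0.07. The count of differences between Col and bak1-3 bkk1-1 was not stable, nor were the genes called, of which leaving out 1 library kept 0 to 6 of 10. Against the reported 8 higher and 2 lower, DESeq2 called 64 and 35, size factors of DESeq2 in edgeR 4 and 0, no filter 9 and 3, nuclear genes only 8 and 2, the replicate block 5 and 0, estimates of spread that are not robust 6 and 0, and leaving out 1 library 0 to 11 and 0 to 4. Counts of the difference between the sets moved little, with 4193 to 4760 higher and 4446 to 5020 lower when 1 library was left out and 4733 and 4892 with the replicate block. The share of counts was recomputed for photosystem, branched-chain, sugar transport, early stress and chloroplast-encoded genes, and kept its direction. List medians near 0 changed sign for clock genes and iron genes without submergence replicate 1 (both -0.01) and for root markers without mock replicate 2 (0.23), beside those given in the report. Among named genes that were not called, ERD10 ranged from -0.45 (without mock replicate 3) to 0.000976 (without mock replicate 1) and PAL4 from -0.17 (without submergence replicate 3) to 0.044 (without submergence replicate 1), so both changed sign. Depth limits genes with few counts. For these CPM are given in place of a fold where a group held 10 counts or fewer, and fitted differences of such genes stand only among the differences between the sets listed above.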
